A study of Mus musculus with 12 samples.

Results

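The clustered protocadherins made up 58 of the 45706 genes in the count table. They were picked by mouse symbol, as every gene whose symbol is Pcdha, Pcdhb or Pcdhg followed by a number, together with the symbols that begin with Pcdhga, Pcdhgb, Pcdhgc and Pcdhac. All 58 lie on the plus strand of mouse chromosome 18 in GRCm38 (mm10), in 3 neighbouring clusters. The alpha cluster (36930184 to 37187661) holds 14 genes, the beta cluster (37264938 to 37524479) holds 22 and the gamma cluster (37661793 to 37841873) holds 22. By family these are 12 alpha genes, 22 beta genes, 12 gamma-A genes, 7 gamma-B genes and 5 C-type genes, of which Pcdhac1 and Pcdhac2 close the alpha cluster and Pcdhgc3, Pcdhgc4 and Pcdhgc5 close the gamma cluster.

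Clustered protocadherins are cadherin-like adhesion proteins of the nervous system that pair on the cell surface and bind the same combination of isoforms on a facing cell, which neurons use to tell their own branches from those of other cells. Each alpha and gamma gene has its own promoter and a large variable exon, which is spliced to constant exons shared by the whole cluster, whereas each beta gene is a single exon without a shared part. In neurons the alternate isoforms are chosen promoter by promoter, with DNA methylation, the insulator protein CTCF and cohesin taking part in the choice, and the C-type genes are known to be used more evenly.

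RNA was sequenced from 4 groups of cells grown from mouse embryonic stem cells (strain C57BL/6) with GFP knocked into 1 copy of Sox1, with 3 libraries per group. Baseline libraries came from unsorted glial progenitors that are Sox1 negative, the neural progenitor cells of the study, and Sox1posGP libraries came from sorted glial progenitors that are Sox1 positive, which the study obtained by guiding dCas9-VP64, a nuclease-dead Cas9 fused to a transcriptional activation domain, to the Sox1 promoter. NSC libraries came from unsorted neuroepithelial cells and NR libraries from GFP-sorted neuroepithelial cells of neural rosettes. The libraries of a group are described as independent samples from different days, and the study states that its replicates used more than 1 clonal line. The lines that express dCas9-VP64 were grown up from single cells. Which line gave which library, and whether Baseline cells carried dCas9-VP64 or guides, is not given in the sources used here. Sox1posGP and NR were sorted while Baseline and NSC were not, so the sort and the state of the cells cannot be told apart except in NSC against Baseline and Sox1posGP against NR, whose groups were treated alike in this respect.

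Library totals ran from 3407066 counts in Sox1posGP 1 to 43095688 in NSC 1, and 3 counts corresponded to 0.0671 to 0.869 CPM (counts brought to a common library total with the TMM factors of edgeR). Sox1, the targeted gene, stood at 4.83, 6.00 and 5.43 CPM in Baseline, 20.3, 20.9 and 21.7 CPM in Sox1posGP, 48.6, 64.9 and 51.8 CPM in NSC and 4.62, 20.0 and 19.2 CPM in NR, so the library labelled NR 1 did not exceed Baseline although its cells were sorted for the Sox1 reporter. The 8 glial progenitor markers summed to between 6041 and 6416 CPM in Baseline, 2534 and 2663 in Sox1posGP, 603 and 1063 in NSC and 323 and 515 in NR. The 4 pluripotency markers (Pou5f1, Nanog, Zfp42 and Dppa5a) summed to at most 6.17 CPM in both progenitor groups, to between 41.5 and 126 CPM in NSC and to between 1294 and 2436 CPM in NR, and the 5 mesenchyme markers to at most 53.0 CPM in the progenitor groups, 926 to 3240 CPM in NSC and 1382 to 7235 CPM in NR. The 8 neuroepithelial markers summed to 1815 to 1910 CPM in NSC but to 470 to 1010 CPM in NR, which overlapped with the 533 to 615 CPM of Baseline and the 592 to 616 CPM of Sox1posGP. These sums held opposite changes: Sox2 fell from 284 CPM in Baseline to 81.5 CPM in Sox1posGP and 126 CPM in NR, Nes rose to 227 and 167 CPM from 90.2 CPM, and 5 of the 8 markers were higher and 3 lower in NR than in Baseline. Of the 10 neuronal markers 9 were tested, and 6 were higher and 2 lower than in Baseline both in NSC and in NR, with Tubb3 at 5.37, 253 and 137 CPM and Stmn2 at 0.766, 117 and 131 CPM in Baseline, NSC and NR. Map2 went the other way, from 464 CPM to 89.9 and 37.9 CPM, 8 of the 9 were lower in NR than in NSC, and Neurod6 was at 0 outside NSC. The 4 astrocyte markers summed to at most 26.0 CPM and the 3 endoderm markers to at most 48.8 CPM. The part of these other cells in the differences reported for NSC and NR was not tested, nor was that of the lower glial progenitor markers in Sox1posGP, and in bulk RNA fewer cells of a type and less RNA per cell cannot be told apart.

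The 58 genes held 0.0207% of all counts, or between 1227 counts in Sox1posGP 1 and 10412 in NSC 1. After the filter on low counts 49 genes were tested. The other 9 were Pcdha4, Pcdha7, Pcdha11, Pcdha12, Pcdhac1, Pcdhb1, Pcdhb13, Pcdhga10 and Pcdhgb8, none of which exceeded 25 counts in any library. For 2 of them a 0 says nothing about expression. Pcdhga10 has no exon base of its own, because its variable exon lies under an antisense gene and its other exons are shared, and it was at 0 counts in all 12 libraries, while Pcdha4, with 404 bases of its own, reached 1 count. The whole table behaved alike: of 99 protein-coding genes without an exon base of their own 88.9% were at 0 in all libraries, against 7.1% of 19379 genes with at least 1000 such bases. The values of alpha and gamma genes are therefore read here as those of their own, variable exons, although the counting rule is not given in the sources used here. Beta genes share no constant exons, and only Pcdhb12, Pcdhb21 and Pcdhb22, overlap other genes in part. Levels of different genes are compared here only as CPM per kb of own exon.

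**Figure D1:**
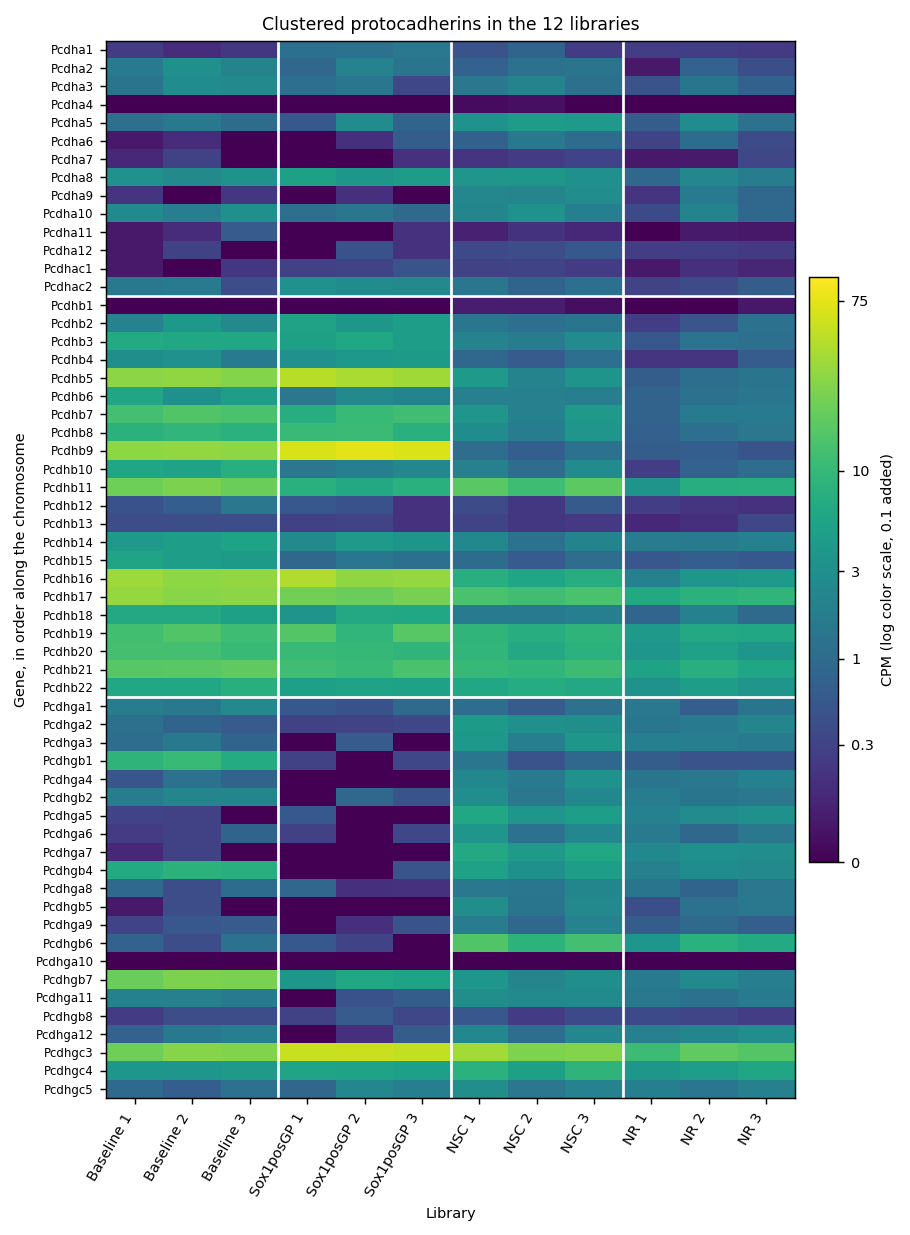
Level of each clustered protocadherin (rows, in order along the chromosome, white lines between the alpha, beta and gamma clusters) in each of the 12 libraries (columns, white lines between groups), as CPM on a log color scale with 0.1 added. Colors are to be compared along a row, since rows are not corrected for length: Pcdhb9 and Pcdhgc3 were brightest in Sox1posGP, where most gamma-A and gamma-B genes were at or near 0, and most beta genes were darker in NSC and NR.

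The summed level of all 58 genes was almost the same in Baseline, at 348, 369 and 352 CPM, and in Sox1posGP, at 355, 354 and 349 CPM. It was lower in NSC, at 233, 169 and 218 CPM, and lowest in NR, at 85.5, 128 and 122 CPM. The Baseline and Sox1posGP libraries overlapped in this sum, and the NSC and NR libraries overlapped neither with them nor with each other. No test was run on sums over the genes, which are given as a description.

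The families did not share this pattern. Beta genes summed to 259 ± 6.04 CPM in Baseline and 266 ± 5.19 CPM in Sox1posGP (SD, n = 3), against 91.9 ± 13.6 CPM in NSC and 49.2 ± 10.8 CPM in NR. Gamma-A genes summed to 10.2 ± 0.836 CPM in Baseline, 2.88 ± 0.698 CPM in Sox1posGP, 30.7 ± 7.64 CPM in NSC and 18.8 ± 2.21 CPM in NR. Gamma-B genes summed to 43.5 ± 4.65 CPM in Baseline, 6.64 ± 1.57 CPM in Sox1posGP, 25.2 ± 7.33 CPM in NSC and 13.99 ± 3.30 CPM in NR. Both gamma families were thus lowest in Sox1posGP, where every library was below every library of the other groups. The C-type genes stood at 31.5 ± 3.56 CPM in Baseline and 65.5 ± 2.24 CPM in Sox1posGP, with 41.3 ± 8.68 CPM in NSC and 22.1 ± 4.14 CPM in NR, and the alpha genes ran from 3.57 to 20.3 CPM over all 12 libraries.

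**Figure D2:**
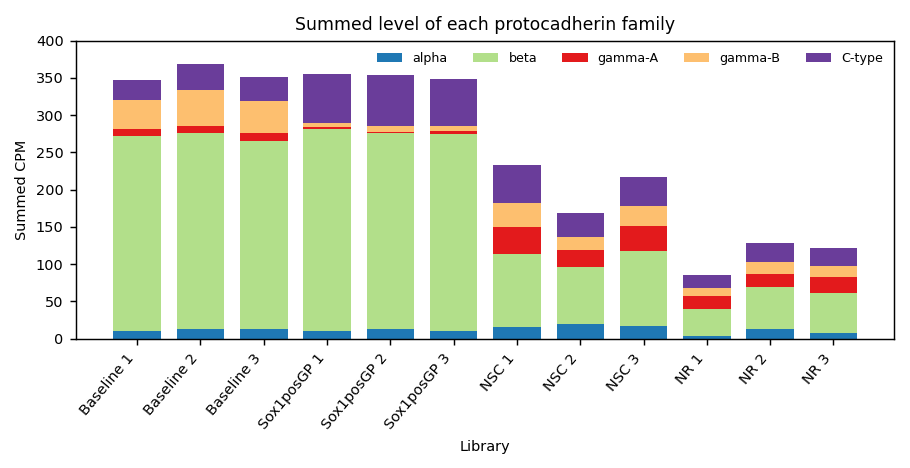
Summed CPM (vertical axis, from 0) of the alpha, beta, gamma-A, gamma-B and C-type genes in each library, stacked. The Baseline and Sox1posGP bars are equally high, between 348 and 369 CPM, but in Sox1posGP the C-type share is larger and the gamma-A and gamma-B shares are smaller. The NSC and NR bars are shorter, mainly in the beta family.

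The comparison of Sox1posGP with Baseline asks what accompanied Sox1 activation in progenitors. By edgeR's quasi-likelihood test, at a Benjamini-Hochberg adjusted p under 0.1 over the 17003 genes tested and an unadjusted p under 0.05, 5 clustered protocadherins rose and 16 fell of the 49 tested, where 21.6% of all genes tested were called higher and 22.7% lower. Beyond 4-fold, 1 rose and 7 fell, against 3.87% and 1.92% of all genes. The median log2 fold change of the 49 was -0.79, against 0 over all genes tested, and the median of the 405 other chromosome 18 genes tested was 0.08. Without the filter on low counts the median was -0.55 over 57 clustered protocadherins. The genes that fell were 6 of 11 tested gamma-A genes, 4 of 6 gamma-B genes and 6 of 20 beta genes, and no alpha or C-type gene fell. Only 3 rose without Baseline 3, without Sox1posGP 2 or without Sox1posGP 3. The filter ran over all 4 groups, so that some of the 49 genes were kept by their levels in NSC and NR. In a fit of only the 2 groups compared, 28 clustered protocadherins were tested, of which 7 rose and 11 fell. Shares over all genes were worked out only for the fit of all 4 groups, so these 2 counts have none beside them.

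Among genes with counts in both groups, the gamma-B genes Pcdhgb1 and Pcdhgb4 had the lowest log2 fold changes. Pcdhgb1, with 8.83, 10.6 and 6.89 CPM in Baseline, was at 0.290, 0 and 0.334 CPM in Sox1posGP, and 257 counts in all stood against 3 (count ratio 47.2, exact 95% interval 16.0 to 230). Its log2 fold change was -5.49 ± 0.61 (SE; edgeR adjusted p = 1.10e-05). All 3 Baseline libraries were far above all 3 Sox1posGP libraries. Pcdhgb4, with 6.80, 8.37 and 7.51 CPM in Baseline, was at 0, 0 and 0.500 CPM in Sox1posGP, or 210 counts against 3 (count ratio 38.6, interval 13.0 to 188). Its log2 fold change was -5.27 ± 0.57 (edgeR adjusted p = 8.45e-06), and it too was near 0 in every Sox1posGP library. Pcdhgb7, the highest gamma-B gene in Baseline per kb, fell from 20.5, 25.8 and 25.0 CPM to 3.76, 6.12 and 5.34 CPM, without overlap and by 2.19 ± 0.26 on the log2 scale (edgeR adjusted p = 1.74e-05). These intervals cover counting error only, since amplified reads are not independent molecules.

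Among the gamma-A genes, Pcdhga4 had 9, 9 and 4 counts in Baseline and 0 in each Sox1posGP library, which was at least 1.43-fold lower against a floor of 3 counts per library (edgeR adjusted p = 0.00373). Pcdhga11, with 1.97, 1.95 and 1.67 CPM in Baseline and 0, 0.471 and 0.667 CPM in Sox1posGP, fell by 2.10 ± 0.47 on the log2 scale (edgeR adjusted p = 0.00294), although an antisense gene covers part of its exon. Pcdhga5, Pcdhga7, Pcdhgb5 and Pcdhgb6 had few counts in both groups, with at most 1.25 CPM in any progenitor library, and did not pass the test. Of the 17 tested gamma-A and gamma-B genes 10 fell. The fitted log2 fold changes of the other 7 were also below 0 but rest on at most 24 counts in Baseline, and for Pcdhga5 the mean levels were 0.192 CPM in Baseline and 0.193 CPM in Sox1posGP.

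None of the C-type genes at the end of the gamma cluster fell. Pcdhgc3 rose from 21.4, 28.5 and 26.7 CPM in Baseline to 55.9, 57.2 and 53.5 CPM in Sox1posGP, with a log2 fold change of 1.13 ± 0.19 (edgeR adjusted p = 0.000313) and no overlap. An antisense gene, BC037039, covers part of its exon and rose as well, but held only 5, 8 and 6 counts in Sox1posGP against 193, 364 and 321 for Pcdhgc3. Pcdhgc4, known for its role in keeping interneurons alive, stood at 3.64, 3.63 and 3.97 CPM in Baseline and 5.501, 5.18 and 4.84 CPM in Sox1posGP (log2 difference 0.47 ± 0.28, edgeR adjusted p = 0.217), which did not pass the test although the groups did not overlap. Pcdhgc5 stood at 0.955, 0.698 and 1.25 CPM against 0.869, 2.36 and 1.83 CPM (log2 difference 0.91 ± 0.45, edgeR adjusted p = 0.130).

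**Figure D3:**
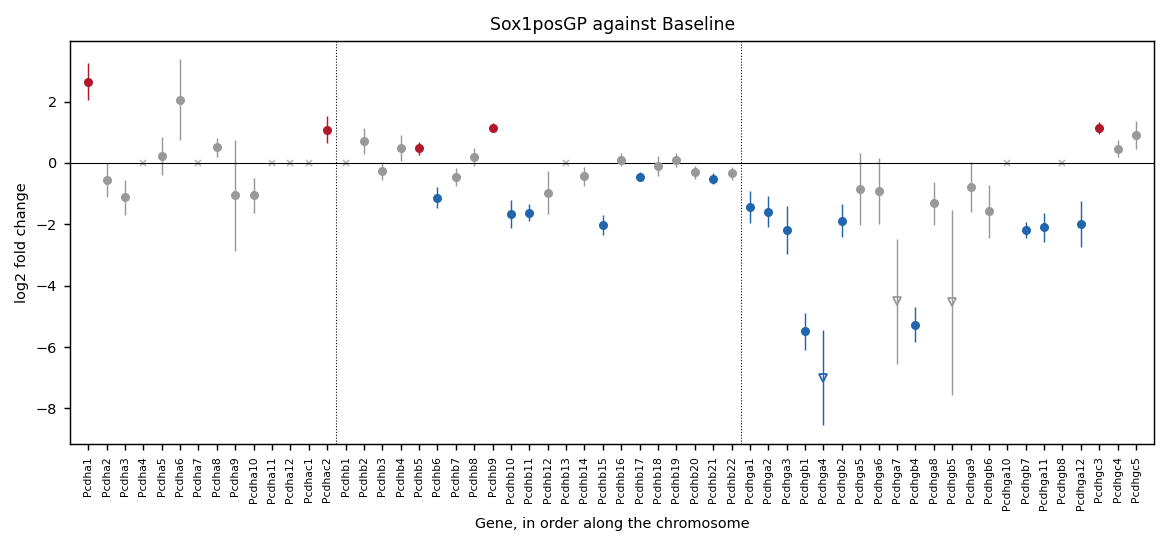
Log2 fold change of Sox1posGP against Baseline (vertical axis, bars are 1 SE) for each gene in order along the chromosome, with dotted lines between the clusters. Red points rose and blue points fell by the call rule (adjusted p under 0.1 and p under 0.05), grey points did not pass, crosses on the 0 line were not tested, and open triangles had 0 counts in 1 group, so that their height depends on the prior count. The 10 blue points of the gamma cluster are gamma-A and gamma-B genes, and the 3 genes Pcdhgc3, Pcdhgc4 and Pcdhgc5 at the right edge lie above 0.

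In the beta cluster the sum hid opposite changes. Pcdhb9, the highest beta gene in both progenitor groups per kb, rose from 31.03, 32.5 and 31.1 CPM to 66.0, 74.7 and 67.9 CPM, with a log2 fold change of 1.14 ± 0.14 (edgeR adjusted p = 3.04e-05) and no overlap between the groups. Pcdhb5, at 29.7, 31.7 and 27.8 CPM in Baseline and 46.9, 41.3 and 36.9 CPM in Sox1posGP, rose by 0.48 ± 0.21 (edgeR adjusted p = 0.0876), a call that was lost when any of the 6 libraries was left out (adjusted p from 0.102 to 0.219). Pcdhb10 fell from 5.85, 5.30 and 7.51 CPM to 1.45, 1.88 and 2.34 CPM, by 1.67 ± 0.45 on the log2 scale (edgeR adjusted p = 0.00994). 2 further genes, named after their values were seen, moved with it: Pcdhb11 fell from 21.8, 25.4 and 21.1 CPM to 7.82, 6.44 and 8.01 CPM, by 1.63 ± 0.27 on the log2 scale, and Pcdhb15 from 5.61, 4.60 and 4.17 CPM to 0.869, 1.41 and 1.17 CPM, by 2.03 ± 0.33 (edgeR adjusted p = 0.000351 and 0.000278). Pcdhb16, also among the highest beta genes, stood at 36.3, 31.1 and 32.8 CPM against 43.4, 31.7 and 33.5 CPM, and the groups overlapped (log2 difference 0.10 ± 0.21, edgeR adjusted p = 0.750). Of the 8 beta genes called, Pcdhb6 lay between both rises and the other 5 falls lay after Pcdhb9.

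In the alpha cluster, where levels were low throughout, 2 of 9 tested genes rose. Over all genes tested 21.6% were called higher, so the 2 rises were near that share. Pcdha1, the first gene of the cluster, stood at 0.239, 0.140 and 0.209 CPM in Baseline and 1.16, 1.26 and 1.501 CPM in Sox1posGP, from 6 and 21 counts in all (count ratio 6.35, exact 95% interval 2.48 to 19.2). Its log2 fold change was 2.64 ± 0.60 (edgeR adjusted p = 0.00322). Pcdhac2, the C-type gene at the other end of the cluster, stood at 1.49, 1.67 and 0.417 CPM in Baseline and 3.18, 2.67 and 2.502 CPM in Sox1posGP, with a log2 fold change of 1.09 ± 0.43 (edgeR adjusted p = 0.0631). That call did not hold without Baseline 3 or without any Sox1posGP library (adjusted p from 0.105 to 0.155). Pcdhac1, its C-type neighbour, had at most 3 counts in any progenitor library and was not tested. Pcdha8, which led the alpha cluster per kb, did not pass the test (3.22, 2.51 and 3.34 CPM against 4.92, 3.77 and 4.34 CPM, log2 difference 0.50 ± 0.32, edgeR adjusted p = 0.246).

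Within each cluster, the share of each gene was taken from its CPM per kb of own exon, and the effective number of genes was computed as the exponential of Shannon's entropy of these shares, that is the number of equally expressed genes that would be as evenly spread. Pcdhgc3 led the gamma cluster in all 12 libraries. It held 33.6, 36.0 and 36.0% of the cluster in Baseline, 85.1, 81.5 and 81.2% in Sox1posGP, 40.7, 44.0 and 35.7% in NSC and 32.5, 39.4 and 34.2% in NR. In Baseline Pcdhgb7 came close to it, with 32.1, 32.6 and 33.7%, and in Sox1posGP it kept 5.73, 8.72 and 8.08%. The effective number of gamma genes was 6.64, 6.19 and 6.28 in Baseline, 1.98, 2.23 and 2.32 in Sox1posGP, 9.84, 8.88 and 11.1 in NSC and 12.8, 10.01 and 11.8 in NR. Baseline 3 with 413 gamma counts stood at 6.28 and Sox1posGP 2 with 478 at 2.23. The gamma cluster was thus narrowest in Sox1posGP and broadest in NR and NSC, whose ranges overlapped.

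The effective number of beta genes was lowest in Sox1posGP as well. It was 14.4, 14.5 and 14.7 in Baseline and 9.87, 9.81 and 10.4 in Sox1posGP, and between 13.9 and 15.3 in NSC and NR. Pcdhb9 held 15.6, 16.2 and 16.1% of the cluster in Baseline, 30.6, 35.1 and 32.5% in Sox1posGP, 1.55, 1.32 and 1.73% in NSC and 2.70, 1.76 and 1.35% in NR. It ranked first in both progenitor groups, 17th in NSC and 18th in NR by mean share. The first place in NSC belonged to Pcdhb11, with 16.9, 15.5 and 16.97%, and in NR to Pcdhb17, named after its values were seen, by mean share (15.6%). In the alpha cluster Pcdha8 or Pcdha5 led all libraries but Baseline 2, where Pcdha2 did. Pcdha5 stood at 1.19, 1.53 and 1.04 CPM in Baseline and rose to 3.38, 4.45 and 3.93 CPM in NSC (log2 fold change 1.63 ± 0.50, edgeR adjusted p = 0.00914). Drawn down to the total of the smallest library, 46.1 to 48.9 of the 58 genes would be detected in Baseline, 41.0 to 44.2 in Sox1posGP, 51.6 to 52.4 in NSC and 45.5 to 49.9 in NR.

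**Figure D4:**
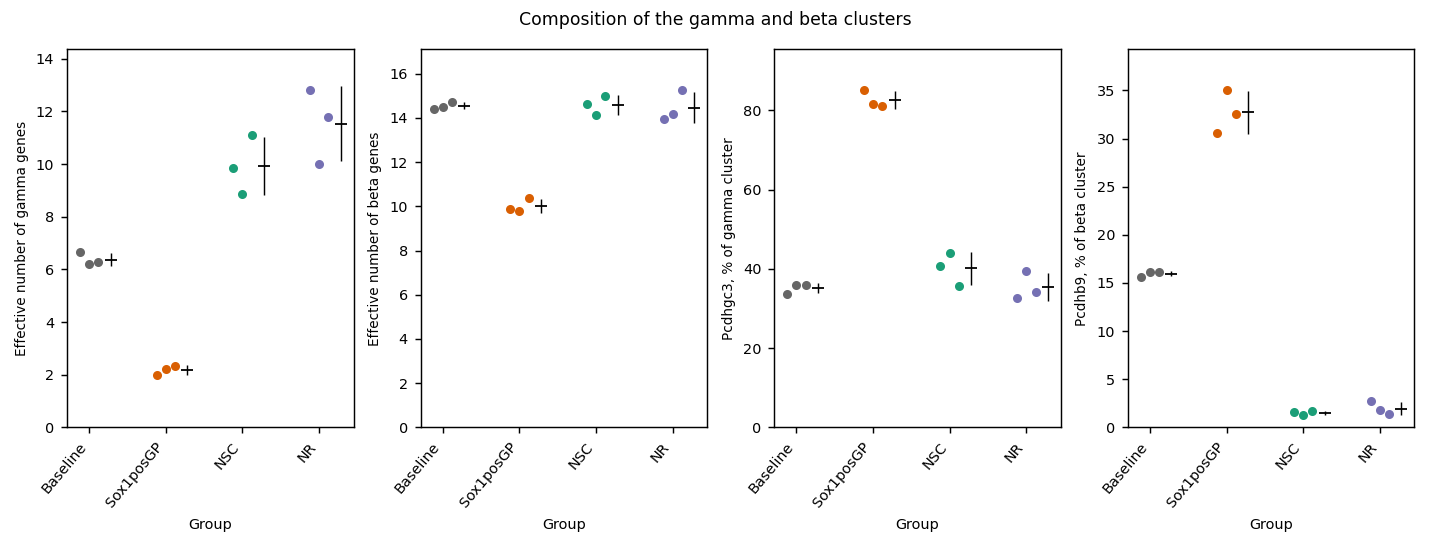
Effective number of gamma genes, effective number of beta genes, share of Pcdhgc3 in the gamma cluster and share of Pcdhb9 in the beta cluster (percent, vertical axes from 0), 1 point per library in the 4 groups, with the mean and SD beside them. The Sox1posGP points are lowest in both effective numbers (1.98 to 2.32 and 9.81 to 10.4) and highest in both shares.

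NSC and NR, the groups described as neuroepithelial, were each compared with Baseline. Both groups also held pluripotency and mesenchyme markers, and the summed neuroepithelial markers of NR overlapped with Baseline. The 2 comparisons share the Baseline libraries, so their values are given side by side. In NSC 16 genes rose and 22 fell, where 42.7% of all genes tested were called higher and 32.5% lower. In NR 10 rose and 29 fell, against 44.2% and 32.8% of all genes. Beyond 4-fold, 7 rose and 7 fell in NSC (19.1% and 5.89% of all genes), and 6 rose and 13 fell in NR (22.0% and 6.02%). In NR 5 genes rose without Baseline 1, and without NR 1, whose Sox1 level was that of Baseline, 9 rose and 27 fell in NR.

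The falls were concentrated in the beta cluster. Of 20 tested beta genes 18 fell and none rose in NSC, with a median log2 fold change of -1.40, and 20 fell in NR, with a median of -2.07, against medians over all genes tested of 0.20 and 0.19. Pcdhb9 stood at 1.07, 0.691 and 1.25 CPM in NSC and 0.677, 0.677 and 0.506 CPM in NR, against 31.03 to 32.5 CPM in Baseline. This was a fall of 4.95 ± 0.18 on the log2 scale in NSC and of 5.68 ± 0.19 in NR (edgeR adjusted p = 3.40e-11 and 2.22e-11), and the gene that led the cluster in progenitors was among its lowest in NSC and NR. Pcdhb5 stood at 3.96, 2.07 and 3.47 CPM in NSC and 0.677, 1.13 and 1.32 CPM in NR, a fall of 3.22 ± 0.22 and of 4.76 ± 0.25 from Baseline (edgeR adjusted p = 1.95e-08 and 1.34e-09). Pcdhb16 stood at 7.41, 5.70 and 7.28 CPM and 1.97, 3.71 and 4.13 CPM, a fall of 2.30 ± 0.21 and of 3.31 ± 0.23 (edgeR adjusted p = 3.06e-07 and 1.38e-08). The last beta gene, Pcdhb22, named after its values were seen, kept 6.24, 7.01 and 6.43 CPM in NSC beside 6.03, 6.14 and 7.72 CPM in Baseline (log2 difference 0.00 ± 0.18), and fell by 0.76 ± 0.19 in NR (edgeR adjusted p = 0.00234). Its neighbour Pcdhb21, also named after its values were seen, stood at means of 17.3 CPM in Baseline, 10.2 CPM in NSC and 6.29 CPM in NR.

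In the gamma cluster the families split. Of 11 tested gamma-A genes 8 rose and 1 fell in NSC, and 5 rose and none fell in NR. Over all genes tested 42.7% were called higher and 32.5% lower in NSC, and 44.2% and 32.8% in NR. The 5 rises in NR were thus near the share over all genes. Gamma-A genes near 0 in Baseline, such as Pcdhga5 and Pcdhga7, were tested only because of their levels in NSC and NR. For them a rise was all but fixed by the filter, so the counts of rises are a description. Pcdhga7, from 4 counts in all of Baseline, reached 6.42, 4.07 and 6.19 CPM in NSC and 2.40, 3.06 and 2.95 CPM in NR, with count ratios of 41.0 (exact 95% interval 15.9 to 151) and 20.7 (7.99 to 76.7) and edgeR adjusted p = 9.48e-07 and 8.12e-06. Pcdhga5, with 7 counts in Baseline, reached 6.15, 3.59 and 4.60 CPM in NSC and 1.97, 2.68 and 3.09 CPM in NR (count ratios 20.4 and 11.1, edgeR adjusted p = 9.61e-06 and 0.000103). Both were near 0 in every Baseline and Sox1posGP library and well detected in every NSC and NR library.

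The gamma-B genes went both ways. Pcdhgb1 and Pcdhgb7 fell, with log2 fold changes of -3.18 ± 0.37 and -2.99 ± 0.24 in NSC and of -4.01 ± 0.41 and -3.53 ± 0.25 in NR (edgeR adjusted p = 3.62e-06, 7.95e-08, 7.52e-07 and 2.17e-08). Pcdhgb4, almost lost in Sox1posGP, kept 5.10, 3.07 and 4.60 CPM in NSC and 1.91, 2.74 and 2.47 CPM in NR, a fall of 0.82 ± 0.31 and of 1.65 ± 0.32 from Baseline (edgeR adjusted p = 0.0279 and 0.000333). Pcdhgb6 rose from 0.776, 0.419 and 1.25 CPM in Baseline to 15.4, 8.53 and 12.5 CPM in NSC and 3.69, 8.13 and 6.72 CPM in NR, with log2 fold changes of 3.97 ± 0.45 and 3.01 ± 0.45 (edgeR adjusted p = 2.33e-06 and 3.59e-05). It ranked behind Pcdhgc3 alone in both NSC and NR by mean share. Pcdhgb5 rose from 4 counts in Baseline to 2.98, 1.35 and 2.47 CPM in NSC and 0.431, 1.23 and 1.49 CPM in NR (edgeR adjusted p = 0.000623 and 0.00716).

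Among the C-type genes, Pcdhgc3 stood at 37.9, 25.9 and 27.7 CPM in NSC (log2 difference from Baseline 0.27 ± 0.18, edgeR adjusted p = 0.192) and at 11.3, 18.3 and 15.7 CPM in NR, a fall of 0.73 ± 0.19 (edgeR adjusted p = 0.00253). Pcdhgc4 rose in NSC, to 8.08, 4.90 and 8.90 CPM, by 0.97 ± 0.25 (edgeR adjusted p = 0.00312), and not in NR (3.76, 4.58 and 5.68 CPM, log2 difference 0.34 ± 0.25, edgeR adjusted p = 0.240). Pcdhgc5 rose in NSC by 1.19 ± 0.38 and in NR by 0.86 ± 0.39 (edgeR adjusted p = 0.0120 and 0.0586), the latter no longer called when NR 1, NR 3, Baseline 1 or Baseline 2 was left out. In the alpha family 4 of 8 tested genes rose and none fell in NSC, and 2 rose and 4 fell in NR. Over all genes tested 42.7% rose and 32.5% fell in NSC, and 44.2% and 32.8% in NR, so the 4 rises in NSC were near the share over all genes. Pcdha9, with 4 counts in Baseline, reached 2.37, 2.21 and 2.90 CPM in NSC and 0.185, 1.68 and 0.927 CPM in NR, and Pcdha6, with 2 counts in Baseline, reached 0.761, 1.52 and 1.04 CPM and 0.308, 1.06 and 0.393 CPM. The count ratios were 17.9 (interval 6.90 to 66.1) and 7.63 (2.88 to 28.6) for Pcdha9 and 15.1 (4.08 to 126) and 9.01 (2.37 to 76.4) for Pcdha6, with edgeR adjusted p of 0.000271, 0.00798, 0.00144 and 0.0111. NR 1 lay below both other NR libraries in both genes, and the Pcdha9 levels of NR and Baseline overlapped. Without Baseline 1 the edgeR adjusted p of Pcdha6 in NR was 0.0835, but the gene was no longer called because its unadjusted p was not under 0.05.

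**Figure D5:**
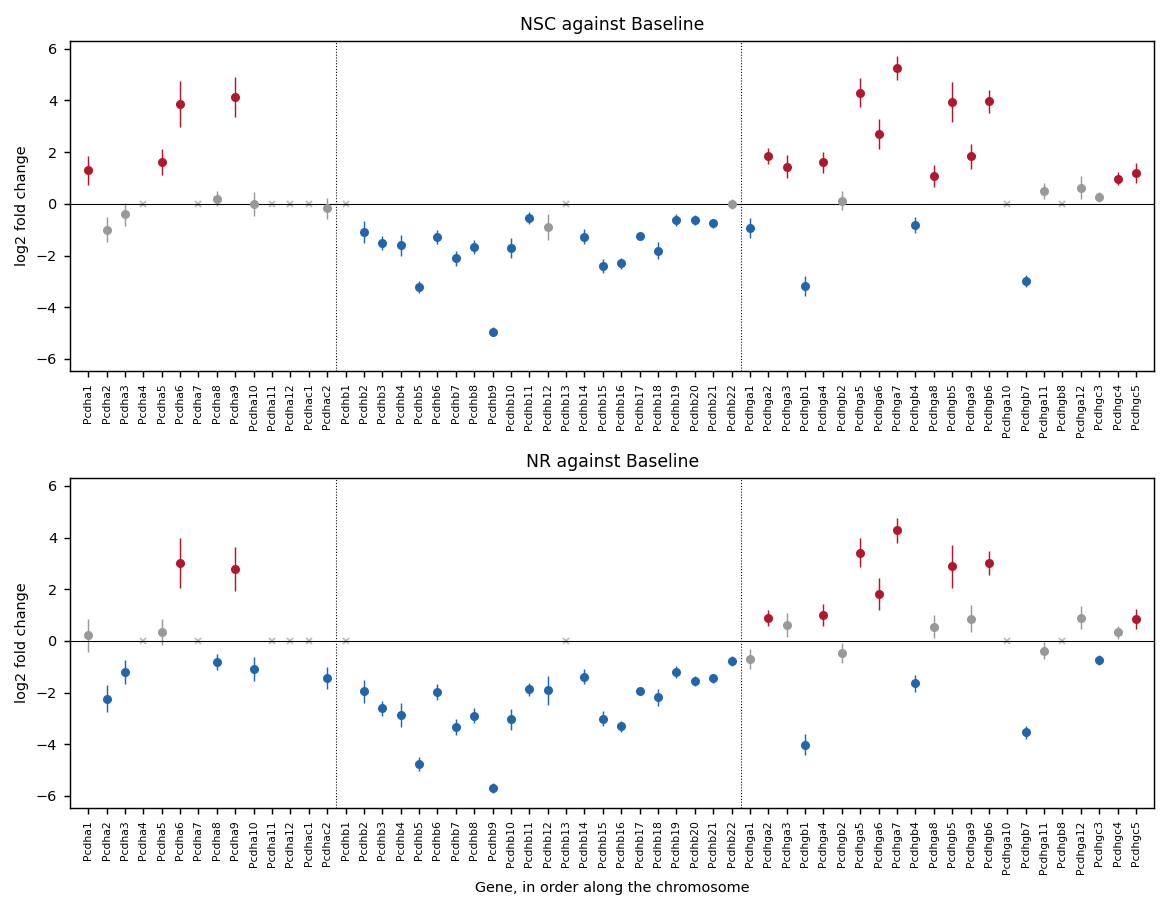
Log2 fold change of NSC (top) and NR (bottom) against the shared Baseline libraries for each gene in order along the chromosome, with bars of 1 SE and dotted lines between the clusters. Red points rose and blue points fell by the call rule (adjusted p under 0.1 and p under 0.05), grey points did not pass and crosses on the 0 line were not tested. Tested beta genes lie below 0, except Pcdhb22 near 0 in NSC, with Pcdhb9 lowest at -4.95 and -5.68. In the gamma cluster Pcdhga7 is highest at 5.25 and 4.27 and Pcdhgb1 lowest at -3.18 and -4.01.

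NR was set against NSC to compare sorted rosette cells with the unsorted culture. No gene rose and 34 of 49 fell, where 29.5% of all genes tested were called higher and 25.8% lower. Beyond 4-fold none rose or fell (7.34% and 0.118% of all genes). The count of genes higher at an unadjusted p under 0.05 was also 0, and so was that of DESeq2 calls. The median log2 fold change was -0.88, against 0.01 over all genes tested, and the falls ran through all families, with 6 of 8 alpha, 15 of 20 beta, 6 of 11 gamma-A, 4 of 6 gamma-B and 3 of 4 C-type genes. The deepest were Pcdhb5 at -1.55 ± 0.25, Pcdhb10 at -1.35 ± 0.41 and Pcdha9 at -1.33 ± 0.47 (edgeR adjusted p = 0.000231, 0.0140 and 0.0297), and Pcdhgc3 fell by 1.01 ± 0.18 (edgeR adjusted p = 0.000425). Without NR 1, in which the 58 genes summed to 85.5 CPM, 23 genes fell and none rose. Pcdhgc4 (-0.63 ± 0.23, edgeR adjusted p = 0.0329) was no longer called without NR 1 or without NSC 3. The 4 pluripotency markers, summing to 41.5 to 126 CPM in NSC and 1294 to 2436 CPM in NR, all rose and so moved opposite to these falls. All 8 neuroepithelial, 6 of 8 glial progenitor and 8 of 9 tested neuronal markers were lower in NR. The part of these markers' cells was not tested.

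Set against NSC and NR, Sox1posGP had more beta and less gamma-A RNA. Against NSC 16 genes were higher and 19 lower (30.0% and 39.9% of all genes tested), and against NR 23 were higher and 15 lower (30.8% and 42.9%), or 22 and 15 without NR 1. Beyond 4-fold, 4 were higher and 15 lower than in NSC (5.82% and 16.4% of all genes) and 11 and 11 than in NR (6.05% and 20.0%). Of 20 beta genes 12 were higher and 1 lower than in NSC, and 17 were higher and none lower than in NR. Pcdhb9 was higher by 6.09 ± 0.18 and 6.82 ± 0.20 on the log2 scale, and Pcdhb5 by 3.70 ± 0.23 and 5.24 ± 0.26 (edgeR adjusted p = 1.25e-11, 1.02e-11, 8.17e-09 and 9.44e-10). Of 11 gamma-A genes 10 were lower in both comparisons, all 10 beyond 4-fold against NSC and 7 against NR. Those near 0 in both progenitor groups, such as Pcdhga5 and Pcdhga7, were tested only because of their levels in NSC and NR, which favoured lower calls in Sox1posGP. Pcdhga7 and Pcdhga4, at 0 counts in every Sox1posGP library, were at least 9.07-fold and at least 4.05-fold lower than in NSC and at least 4.57-fold and at least 2.63-fold lower than in NR. Pcdhgb5, also at 0, was at least 3.69-fold lower than in NSC and at least 1.71-fold lower than in NR. Pcdhgc3 was higher in Sox1posGP than in either group, by 0.86 ± 0.18 against NSC and 1.87 ± 0.19 against NR (edgeR adjusted p = 0.000743 and 7.84e-07). Against the same Baseline libraries, 6 gamma-A genes fell and none rose in Sox1posGP, while 8 rose and 1 fell in NSC and 5 rose and none fell in NR. Over all genes tested 21.6% rose and 22.7% fell in Sox1posGP, 42.7% and 32.5% in NSC, and 44.2% and 32.8% in NR.

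Genes around the clusters were looked up in the same fits. Of 33 tested genes within 500 kb, 6 were higher and 8 lower in Sox1posGP than in Baseline (21.6% and 22.7% of all genes tested), 10 and 11 in NSC (42.7% and 32.5%) and 15 and 13 in NR (44.2% and 32.8%). Taf7, which encodes a subunit of the general transcription factor TFIID and lies between the beta and gamma clusters, stood at 11.2 CPM in Baseline and 5.68 CPM in Sox1posGP, against 28.2 CPM in NSC and 49.97 CPM in NR (log2 fold changes from Baseline -0.99, 1.33 and 2.15; edgeR adjusted p = 0.000511, 1.43e-06 and 1.15e-08). Diaph1, a formin just beyond the last gamma gene on the other strand, rose from 16.3 to 33.8 CPM in Sox1posGP (log2 fold change 1.05, edgeR adjusted p = 0.000117). 3222401L13Rik, a noncoding gene that ends just before Pcdhga1, stood at a mean of 0.696 CPM in Baseline (7, 3 and 6 counts), 0.0556 CPM in Sox1posGP (0, 0 and 1 counts), 2.47 CPM in NSC and 2.20 CPM in NR.

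Of 12 genes listed as regulators of protocadherin promoter choice, 3 were higher and 2 lower in Sox1posGP than in Baseline, 8 higher and 2 lower in NSC, and 7 higher and 4 lower in NR. Over all genes tested these shares were 21.6% and 22.7%, 42.7% and 32.5%, and 44.2% and 32.8%. Ctcf, which encodes the insulator protein that binds these promoters, stood at 99.0 CPM in Baseline, 122 CPM in Sox1posGP, 277 CPM in NSC and 274 CPM in NR (log2 fold changes from Baseline 0.30, 1.48 and 1.47; edgeR adjusted p = 0.00837, 1.15e-09 and 1.19e-09). Smc1a, a cohesin subunit, fell by 0.94 on the log2 scale in Sox1posGP (edgeR adjusted p = 4.56e-06). Of 12 genes of DNA methylation and silencing, 4 were higher and 3 lower in Sox1posGP, 9 higher and 2 lower in NSC, and 8 higher and 2 lower in NR, beside the same shares over all genes (21.6% and 22.7%, 42.7% and 32.5%, 44.2% and 32.8%). Dnmt3b, a de novo methyltransferase known to act on the alternate promoters, stood at 9.19 CPM in Baseline and 9.33 CPM in Sox1posGP and rose to 99.5 CPM in NSC and 608 CPM in NR (edgeR adjusted p = 7.04e-07 and 4.33e-09). Setdb1, a histone methyltransferase with a known part in the architecture of these clusters, rose from 115 to 321 CPM in Sox1posGP (log2 fold change 1.48, edgeR adjusted p = 7.27e-08), and Uhrf1, which maintains DNA methylation, from 68.0 to 179 CPM (1.40, edgeR adjusted p = 2.16e-08). Smchd1, whose product silences the clusters, did not pass the test in Sox1posGP (log2 difference -0.11, edgeR adjusted p = 0.537). Whether these genes had a part in the protocadherin differences was not tested.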

How the data were processed

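The deposited table holds raw counts per Ensembl gene for 12 libraries, which the authors made from PicoPure RNA amplified with SMART-Seq v4, without normalization. The submitters' processing notes name STAR 2.6, RSEM 1.1.14 and mm10. The notes give these names no role, so whether RSEM, which apportions reads shared by genes, made these whole-number counts is not stated, and the strand setting and annotation are not given in the sources used here. Libraries were grouped by their labels, 3 per group.

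Symbols and exons came from GENCODE M21 (GRCm38), where 45143 identifiers had a symbol and the 563 others held 0.124% of counts. 2 identifiers share the symbol Pcdha11, and the first was called Pcdha10 by its RefSeq position. Own exon bases are those no other gene of the table covers on either strand.

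Tests were run on the counts as deposited with edgeR 4.0.16 (R 4.3.3): TMM scaling, filterByExpr with 4 groups, glmQLFit and glmQLFTest over all 12 libraries without a block, a prior count of 0.125 and Benjamini-Hochberg adjustment over 17003 genes. A call needed an adjusted p under 0.1 and p under 0.05. SEs were derived from the F statistics. P-values measure the spread between libraries within groups, estimated for each gene over all 4 groups together and not for the groups compared alone. Intervals of count ratios are exact (95%). A self-test on simulated counts was run for Sox1posGP against Baseline, with the same spread for every gene. A log2 fold change of 3 was given to 200 of 16103 genes. Of the simulated rises 100% were called and of the falls 82%, with 24 false calls, so falls were missed more often than rises. DESeq2 1.42.0, other scalings, filters and left-out libraries were alternatives. The per-kb shares over all exons were added after the data were seen.

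Replicate numbers 1 to 3 appear in all groups. Deviations of same-numbered NR and NSC libraries from their group means correlated at 0.229, 0.490 and 0.296. These numbers may thus mark pairs, a hint from the data and not from a label. In the other comparisons the correlations were at most 0.0619. The main tests did not use pairs, and the replicate number entered only as a block in an alternative fit. Between libraries of a group the chi-square of counts per degree of freedom ran from 1.54 (Sox1posGP 1 and 3) to 49.0 (NSC 1 and 2). Sequencing 1 library again would give a value near 1. This measure cannot tell separate libraries made from 1 RNA sample from independent samples.

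Genes named are the C-type genes, the 2 highest per kb of own exon in each other family, the 3 largest non-overlapping calls per comparison and direction, genes of the lists, and those marked as named later. The 58 genes and all lists were chosen with earlier results of these data known. No sequences are shown.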

Additional observations from a re-analysis of the deposited data

How the results depend on the processing

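With a filter of at least 10 counts in every library, 16 clustered protocadherins were tested, which leaves out the gamma genes at or near 0 in Sox1posGP or Baseline. This gave 3 higher and 4 lower for Sox1posGP against Baseline, 1 and 11 for NSC against Baseline, 0 and 15 for NR against Baseline, 14 lower for NR against NSC, 10 and 1 for Sox1posGP against NSC, and 13 and 0 for Sox1posGP against NR. With a fold over 4 required, the counts were 1 higher and 7 lower, 7 and 7, 6 and 13, 0 lower for NR against NSC, 4 higher for Sox1posGP against NSC and 11 higher for Sox1posGP against NR. At an adjusted p under 0.05, 3 genes were higher in Sox1posGP than in Baseline. Shares over all genes were worked out only for the main fit, with and without the fold over 4. The counts under the other settings of this section therefore have no share beside them and are not read against the main counts.

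Leaving out 1 library at a time gave 3 to 4 higher in Sox1posGP than in Baseline (3 without Baseline 3, Sox1posGP 2 or Sox1posGP 3) and 5 to 10 higher in NR than in Baseline (5 without Baseline 1). For NR against NSC it gave 23 to 38 lower. The replicate number as a block gave 5 higher and 17 lower for Sox1posGP against Baseline and 38 lower for NR against NSC, and no count of calls moved by over 1.5 times with the block. It changed no call of a named gene. DESeq2 gave 5 higher and 15 lower for Sox1posGP against Baseline and 30 lower for NR against NSC.

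Of 863 alternative values of 65 named log2 fold changes, 840 kept direction and side of the threshold, 18 lost the call, 5 gained it and 0 reversed. The shares depend on the length used. Without a length correction the mean effective number was 7.75, 2.63, 12.0 and 13.6 for the gamma cluster in Baseline, Sox1posGP, NSC and NR, 11.1, 13.6 and 13.3 for the beta cluster in Sox1posGP, NSC and NR and 9.10 for the alpha cluster in NSC. Per kb of all exons, a choice made after seeing the data, it was 7.61, 2.69, 12.1 and 13.7 for the gamma cluster, 14.3 for the beta cluster in Baseline and 8.98 for the alpha cluster in NSC. The mean beta sum in Baseline was 252 CPM with DESeq2 size factors and 245 with unscaled totals. The mean number of genes over 3 counts was 42.3, 30.7, 55.0 and 51.7 in Baseline, Sox1posGP, NSC and NR, and became 52.3, 45.0, 56.7 and 55.0 with at least 1 count and 34.3, 23.3, 51.0 and 43.7 with at least 10. Depth was low in Sox1posGP, where 3 counts equal 0.471 to 0.869 CPM, and in Baseline 3, where they equal 0.626 CPM. Levels below these rest on fewer than 3 counts in a library.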

Other observations

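The non-clustered protocadherins, whose genes lie outside the 3 clusters, were looked up in the same fits. Of 12, 10 were tested, and 2 were higher and 2 lower in Sox1posGP than in Baseline, 4 and 4 in NSC, and 5 and 5 in NR. Over all genes tested 21.6% and 22.7%, 42.7% and 32.5%, and 44.2% and 32.8% were called. Pcdh1 and Pcdh12 are also among the genes within 500 kb of the clusters. Pcdh17 rose from 0.176 CPM in Baseline to 3.96 CPM in Sox1posGP, 12.6 CPM in NSC and 3.85 CPM in NR (log2 fold changes 4.47, 6.12 and 4.43; edgeR adjusted p = 2.87e-06, 5.14e-09 and 2.42e-07), and Pcdh7 from 4.71 CPM to 11.5, 34.4 and 37.2 CPM. Pcdh10 fell from 45.5 CPM to 17.5, 1.64 and 1.68 CPM and Pcdh19, a gene known from an X-linked epilepsy, from 37.9 CPM to 15.0, 16.8 and 17.5 CPM. Pcdh8 stood at 2.84 CPM in Baseline and 2.53 CPM in Sox1posGP, against 488 CPM in NSC and 148 CPM in NR.

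Of 13 genes whose products signal from or process clustered protocadherins, 5 were higher and 5 lower in Sox1posGP than in Baseline, 6 and 3 in NSC, and 5 and 5 in NR. The shares over all genes tested were 21.6% and 22.7%, 42.7% and 32.5%, and 44.2% and 32.8%. Fyn, a kinase, fell from 985 CPM in Baseline to 537 CPM in Sox1posGP, 204 CPM in NSC and 103 CPM in NR. Members of the WAVE complex, which links these receptors to actin, went both ways in Sox1posGP: Wasf1 rose from 37.4 to 68.0 CPM, and Cyfip2 fell from 14.9 to 8.80 CPM, Nckap1 from 279 to 210 CPM and Brk1 from 319 to 177 CPM.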
